A study of Mus musculus with 4 samples.

Results

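Gene expression in 1 medulloblastoma of a PtchLacZ/+ mouse was compared with that in 1 wild-type cerebellum. Both samples were picked by their titles and are 2 of the 4 arrays of the study; the arrays of Math1-Cre;SmoM2 tumours were left out. The tumour came from a mouse aged 5 months that carried a lacZ allele of Ptch1 beside the normal allele, and such tumours arise spontaneously in these animals. The control was whole cerebellum from wild type at an age of 2 months. All mice of the study had a mixed C57BL/6 and C3H background, and total RNA from freshly removed tissue was hybridised to Affymetrix Mouse Gene 1.0 ST arrays. The number of animals behind each sample, their sex and the part of Ptch1 that lacZ replaces are unstated in the sources used here. Genotype, tissue and age differ together between the 2 samples and cannot be told apart. Levels of several Y chromosome genes, given below, differ along with them, and whether the animals differed in sex was not tested.

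Of 35557 probe sets, the 21789 with a single gene symbol were used, and they represent 19938 genes. With 1 array on each side no difference has a replicate check, so sizes of differences are given with no test. A difference is the log2 level in the tumour minus that in the cerebellum, so that 1 unit is a 2-fold difference. Counts of genes called higher or lower mean at least 2-fold. Levels of different genes are not set against each other, since probe sets differ in their response.

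Hedgehog signalling works through a double negative. The receptor Ptch1 holds the transducer Smo in check until a Hedgehog ligand binds, and active Smo then turns the Gli factors into activators of transcription. In the postnatal cerebellum, Hedgehog ligand from Purkinje cells drives division of granule neuron progenitors, which are marked by the transcription factor Atoh1 and later become the small excitatory neurons of the granule layer. Loss of Ptch1 function in these progenitors is a known route to medulloblastoma.

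In all, 1576 genes (7.90%) were at least 2-fold higher in the tumour and 2113 genes (10.6%) were at least 2-fold lower. Either direction together took in 18.5% of genes. A 4-fold difference was reached by 481 genes (2.41%) upward and 693 genes (3.48%) downward, 5.89% in all. The median difference over all genes was 0.02, and the middle 50% of genes lay between -0.32 and 0.33. The lower quartile of genes was 5.09 in the cerebellum and 5.14 in the tumour, and a level under it is not shown to be above background. For 159 of the higher and 185 of the lower genes the lower of both levels was of this kind. With it raised to the quartile the difference is given as a limit ("at least"), and 1534 genes then remained 2-fold higher and 2050 lower. Within the tissue a smaller number of cells of a type and less RNA per cell cannot be told apart.

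**Figure D1:**
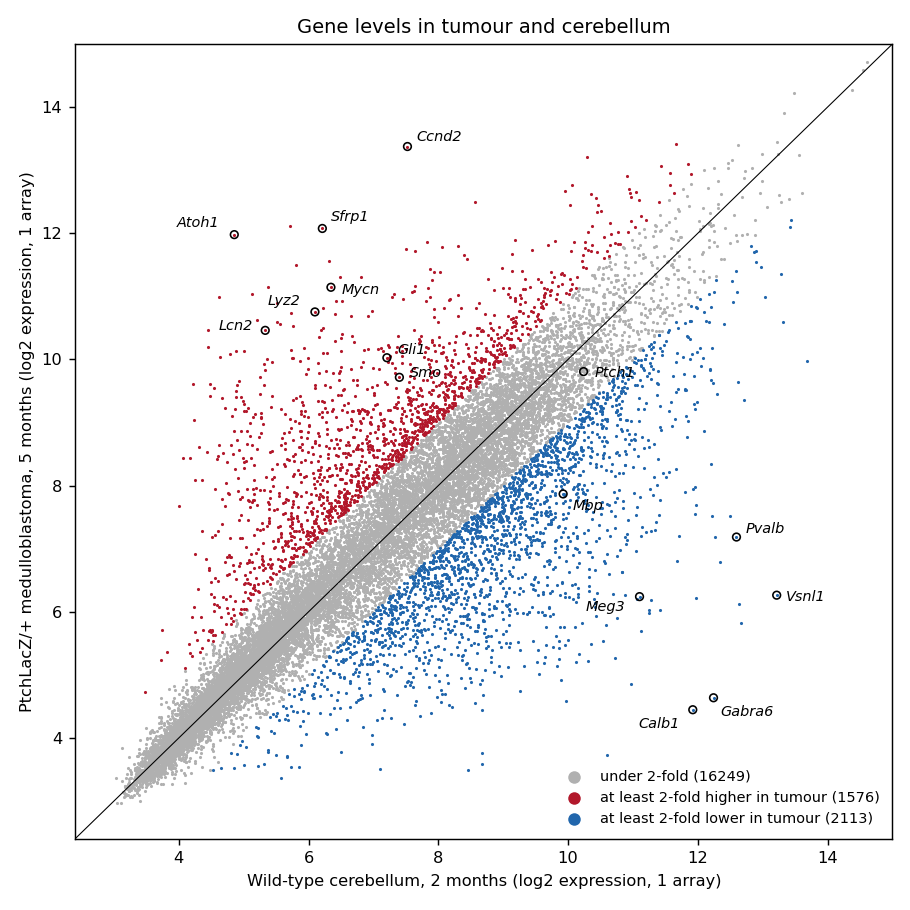
Log2 level of each of 19938 genes in the wild-type cerebellum (horizontal) and the PtchLacZ/+ medulloblastoma (vertical), 1 array each, with the line of equal levels. Red points are the 1576 genes at least 2-fold higher in the tumour, blue points the 2113 genes at least 2-fold lower and grey points the other 16249, and circles mark genes named in the text, with Atoh1 far above the line and Gabra6 and Calb1 far below it.

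The promoters of cell cycle genes are shown first because the lists with the highest medians were of cell cycle genes. In many such promoters 2 kinds of short motif are known. The CHR motif (TTTGAA), often downstream of CCAAT boxes, is bound by the DREAM and MuvB complexes that time mitotic genes. E2F factors bind motifs such as TTTCCCGC or TTTGGCGC in genes of DNA replication. The stretches below end at the last base before the annotated start and come from RefSeq on build GRCm38.p6, read 5′ to 3′ on the strand of the gene. Capitals mark the CHR, CCAAT or E2F letters. A motif on the other strand reads as its reverse complement, so that CHR appears as TTCAAA and CCAAT as ATTGG. They were picked as examples after their values were seen.
Cdk1: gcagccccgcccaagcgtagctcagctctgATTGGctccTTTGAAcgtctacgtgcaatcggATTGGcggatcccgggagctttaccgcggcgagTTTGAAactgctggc
Top2a: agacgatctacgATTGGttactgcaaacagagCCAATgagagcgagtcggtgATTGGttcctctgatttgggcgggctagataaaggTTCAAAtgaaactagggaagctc
Kif11: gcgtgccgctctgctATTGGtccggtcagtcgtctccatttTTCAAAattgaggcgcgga
Mcm6: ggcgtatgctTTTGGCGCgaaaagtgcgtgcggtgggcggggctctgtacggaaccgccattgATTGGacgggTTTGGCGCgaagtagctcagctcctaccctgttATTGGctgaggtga
Cdc6: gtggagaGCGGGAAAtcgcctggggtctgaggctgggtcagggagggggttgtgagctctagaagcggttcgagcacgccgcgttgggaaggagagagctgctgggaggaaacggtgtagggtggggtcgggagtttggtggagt

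These stretches lie at chr10:69352913-69353022 (minus strand) for Cdk1, chr11:99024190-99024299 (minus) for Top2a, chr19:37376322-37376381 (plus) for Kif11, chr1:128359706-128359825 (minus) for Mcm6 and chr11:98908006-98908150 (plus) for Cdc6. The CHR letters begin 71 and 15 bases before the start in Cdk1, 23 bases before it in Top2a and 19 bases before it in Kif11. In Mcm6 the E2F letters begin 110 and 47 bases before the start, and in Cdc6 138 bases before it. Cdk1, the kinase that starts mitosis, read 5.32 in the cerebellum and 9.93 in the tumour. Top2a, which untangles replicated DNA, read 5.12 and 11.04 in the same order. Kif11, the motor that pushes spindle poles apart, was at 4.89 and 10.14, and its cerebellar level was not shown to be above background. Mcm6, a subunit of the replicative helicase, was at 6.51 and 10.93, and Cdc6, which loads that helicase, at 5.88 and 8.76. All 5 were thus over 4-fold higher in the tumour.

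Over 15563 measured genes with a RefSeq promoter (250 bases before to 50 after the start), CHR letters occurred in 15.2%, CCAAT in 38.3% and either E2F form in 2.31%. Among the 379 such genes at least 4-fold higher in the tumour the shares were 26.6%, 50.4% and 10.6%. Among the 534 genes at least 4-fold lower they were 8.43%, 30.3% and 0.749%. The shares differed between mitotic and replication genes. CHR letters were found in 10 of 15 promoters of mitotic entry genes, 14 of 24 of kinetochore, checkpoint and cytokinesis genes and 9 of 10 of mitotic kinesins, but in 4 of 33 of DNA replication genes. E2F letters were found in 13 of 33 DNA replication promoters and in 1, 0 and 2 of those 3 mitotic groups. The Gli motif GACCACCCA was present in 0.18% of all promoters and in 2 of the 379. It was found in none of 7 promoters of Hedgehog target genes, which says only that these letters are not in those windows. The E-box CAGCTG occurred in 15.9% of all promoters, 16.4% of the 4-fold higher and 16.1% of the 4-fold lower ones. A match is a description of letters and not of binding.

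Hedgehog pathway genes differed in size and direction, also among genes of like role. Among ligands, receptors and coreceptors, 5 of 12 were higher and none lower, with a median difference of 0.69. Smo read 7.40 in control tissue and 9.72 in the tumour, a difference of 2.32 and the largest of this list. In the same order, Hhip, a membrane protein that captures Hedgehog ligand, was at 6.29 and 7.90. The coreceptor genes Boc and Gas1 were higher by 1.41 and 1.07, and Gpr161, a ciliary receptor that restrains the pathway, by 1.11, whereas the coreceptor gene Cdon differed by -0.17. Ptch1 itself measured 10.24 in the cerebellum and 9.81 in the tumour, the lowest difference of the list at -0.43. Whether its probe set lies in the part replaced by lacZ is not given, so its level checks nothing about the genotype. The ligand gene Shh differed by -0.38, with 6.43 and 6.05.

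Of 12 Gli factors and regulators, 5 were higher and 1 lower (median 0.69). Gli1, an activator and itself a target, whose level serves to report pathway activity, was at 7.21 and 10.03, and the activator Gli2 at 5.97 and 8.75. Gli3, which acts mainly as a repressor, differed the other way by -0.77, with 5.97 and 5.21. Sufu, which restrains Gli proteins, was higher by 1.94, and the ciliary genes Evc and Evc2 by 1.76 and 1.32. The single lower gene was Spop, an adaptor for the ubiquitin ligase that degrades Gli proteins, at 11.62 and 9.74.

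Of 13 genes listed as Hedgehog targets, 10 were higher and none lower, with a median of 2.72 against 0.02 for all genes. The target Sfrp1, a secreted Wnt antagonist, measured 6.21 in the cerebellum and 12.08 in the tumour, and the target Ccnd2 (cyclin D2) at 7.52 and 13.37. Mycn, a growth-promoting transcription factor, was at 6.34 and 11.14. Ccnd1 (cyclin D1) was higher by 3.26, and Cxcr4, a receptor for a chemokine, by 2.72. The 3 targets not past 2-fold were Ptch1, Hes1 (-0.06) and Igf2 (-0.05). This list holds Gli1, Ptch1 and Hhip from the pathway lists and several cell cycle genes, so the lists do not count independent genes.

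**Figure D2:**
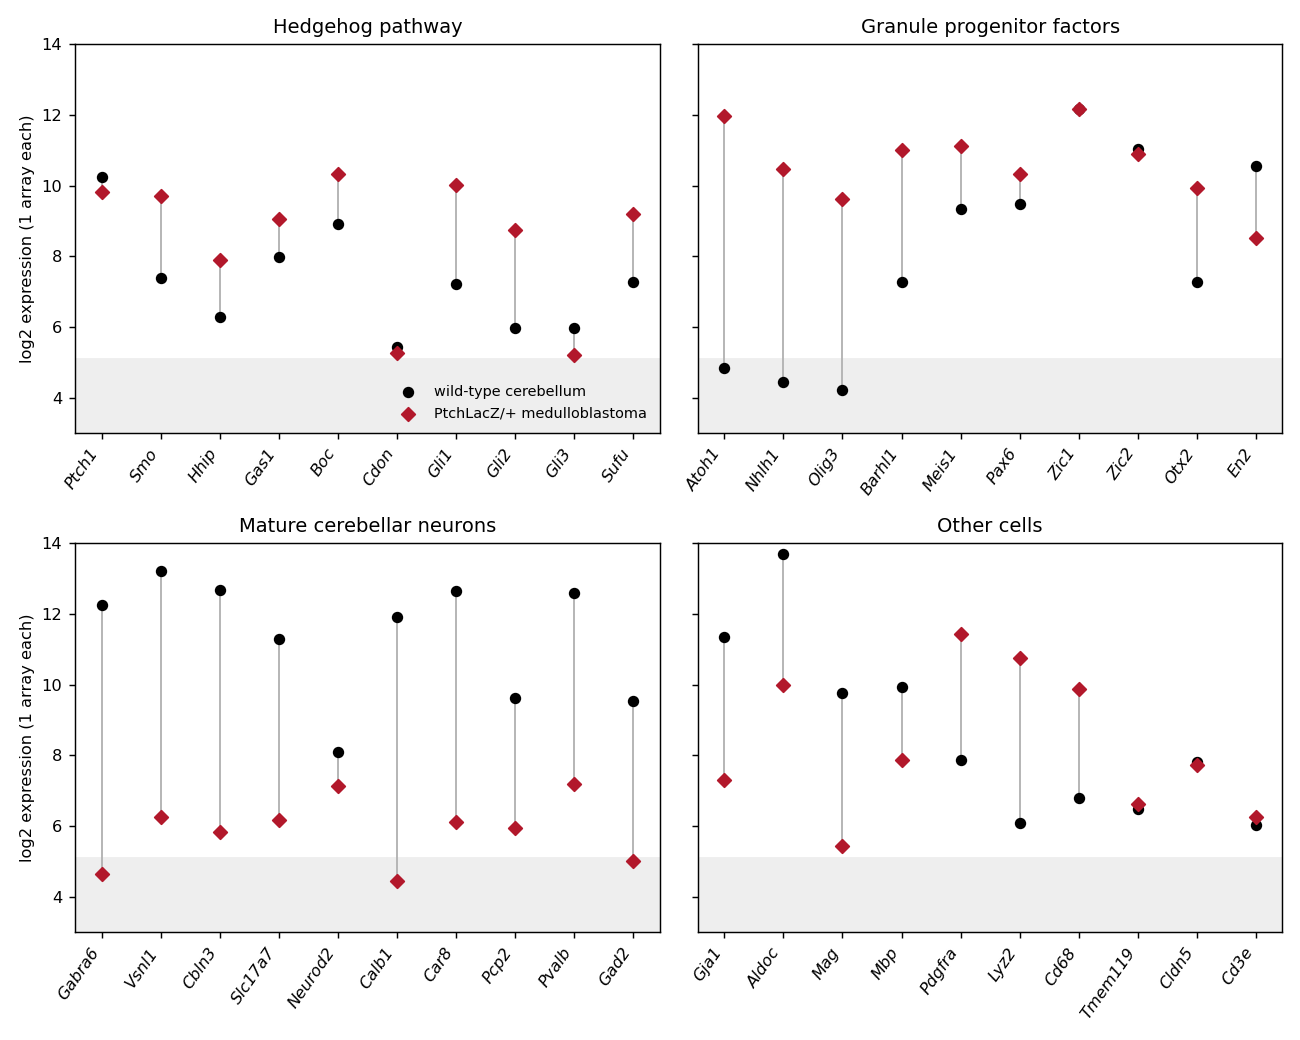
Log2 level of selected genes in the wild-type cerebellum (black circles) and the PtchLacZ/+ medulloblastoma (red diamonds), 1 array each, joined by a line, with the range under the cerebellar lower quartile of 5.09 shaded. Gli1, Gli2 and Smo lie higher in the tumour, Ptch1 and Zic1 lie close in both, and the neuronal genes of the lower left panel all lie lower.

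The transcription factors that mark granule progenitors ranged widely, from near 0 upward. Of 16 factors, 9 were higher, 4 of them by at least 4-fold, and none was lower, with a median of 1.12. Atoh1 read 4.85 in the cerebellum and 11.98 in the tumour, at least 6.89 apart. Nhlh1, a helix-loop-helix factor of newly formed neurons, read 4.44 and 10.47, and Olig3, a factor of the embryonic rhombic lip, 4.22 and 9.61. The cerebellar levels of these 3 genes were not shown to be above background, so that Nhlh1 was higher by at least 5.38 and Olig3 by at least 4.52. Barhl1, a homeobox factor of the granule lineage, was at 7.28 and 10.99 and Meis1 at 9.34 and 11.12. By contrast Zic1 (12.18 and 12.15) and Zic2 (11.03 and 10.90), which progenitors and granule neurons both use, differed by -0.03 and -0.12, and the lowest difference was that of Meis2 at -0.35. When the probe sets of a gene were averaged, the median of the list was 0.74 and Zic4 and Zic5 were no longer 2-fold higher.

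The regional identity factors showed 2 large opposite differences. Otx2, a factor of forebrain, midbrain and posterior cerebellum, was at 7.28 and 9.94, and En2, a factor of the midbrain-hindbrain region, at 10.55 and 8.51. Of the 16 factors, 2 were higher (Otx2 and Otx1, by 1.14), 1 was lower and 13 were between (median 0.31). Among Sox and nuclear factor I genes, 4 of 14 were higher and none lower (median 0.57, lowest Sox17 at -0.48). Sox18, best known as a factor of blood vessels, was at 6.45 and 9.44, while the endothelial markers described below had a median difference of -0.09. Nfib and Nfia, which act in granule neuron differentiation, were higher by 2.28 and 1.52. Of 14 neural stem cell genes, 4 were higher, led by the intermediate filament Nes (5.64 and 8.32), and Sox2 was lower by 1.12 (median 0.46).

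Genes of newly formed neurons were mixed. Of 21 immature neuron genes, 12 were higher and 2 lower (median 1.90). Sox11 was at 5.20 and 10.62 and its relative Sox4 at 6.22 and 10.10. Dcx, a microtubule protein of migrating neurons, was at 5.32 and 9.60, and the surface protein gene Cd24a at 7.51 and 11.75. Stmn3 and Mllt11 were lower by 1.45 and 1.25, although Stmn3 differed by only -0.60 when its probe sets were averaged. Neurod1, a differentiation factor of granule neurons, was at 11.95 and 11.07 and Gap43, a growth cone protein, at 12.08 and 11.70, so both stayed within 2-fold.

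Mature granule neuron genes were lower almost throughout: 18 of 20 were lower, 16 of them by at least 4-fold, and none was higher (median -3.41). Gabra6, the GABA receptor subunit peculiar to granule neurons within the cerebellum, read 12.24 in the cerebellum and 4.64 in the tumour. The latter is not shown to be above background, so Gabra6 fell by at least 7.10 on the log2 scale. The neuronal calcium sensor gene Vsnl1 was at 13.22 and 6.26, and Cbln3, a synaptic cerebellin, at 12.67 and 5.83. Slc17a7, the vesicular glutamate transporter, was at 11.28 and 6.18, and Chn2, a Rac regulator, at 12.35 and 6.79. The 2 members within 2-fold were Neurod2 (-0.96) and Reln, which encodes an extracellular guidance protein and stood at 10.54 and 10.41.

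Purkinje cell genes were lower to a like extent, with 14 of 16 lower and a median of -3.49. The calcium buffer Calb1 read 11.92 and 4.45, the phosphatase inhibitor gene Ppp1r17 10.60 and 3.73, and Arhgef33 10.96 and 4.85, all with tumour levels not shown to be above background. They fell by at least 6.78, 5.45 and 5.82 on the log2 scale, in that order. Car8, which modulates the IP3 receptor, was at 12.64 and 6.12. Foxp2, a transcription factor of Purkinje cells, stood alone in the other direction at 6.07 and 8.50. Of 13 inhibitory interneuron and brush cell genes, 10 were lower (median -2.32), including the calcium buffer Pvalb at 12.60 and 7.18 and the GABA-synthesising enzyme Gad2 at 9.55 and 5.01 (under the quartile). The highest difference of that list was 0.25, for the secreted ligand gene Nxph1. Over the 49 different genes of these 3 neuronal lists, 42 were lower, 35 of them by at least 4-fold, and 1 was higher.

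**Figure D3:**
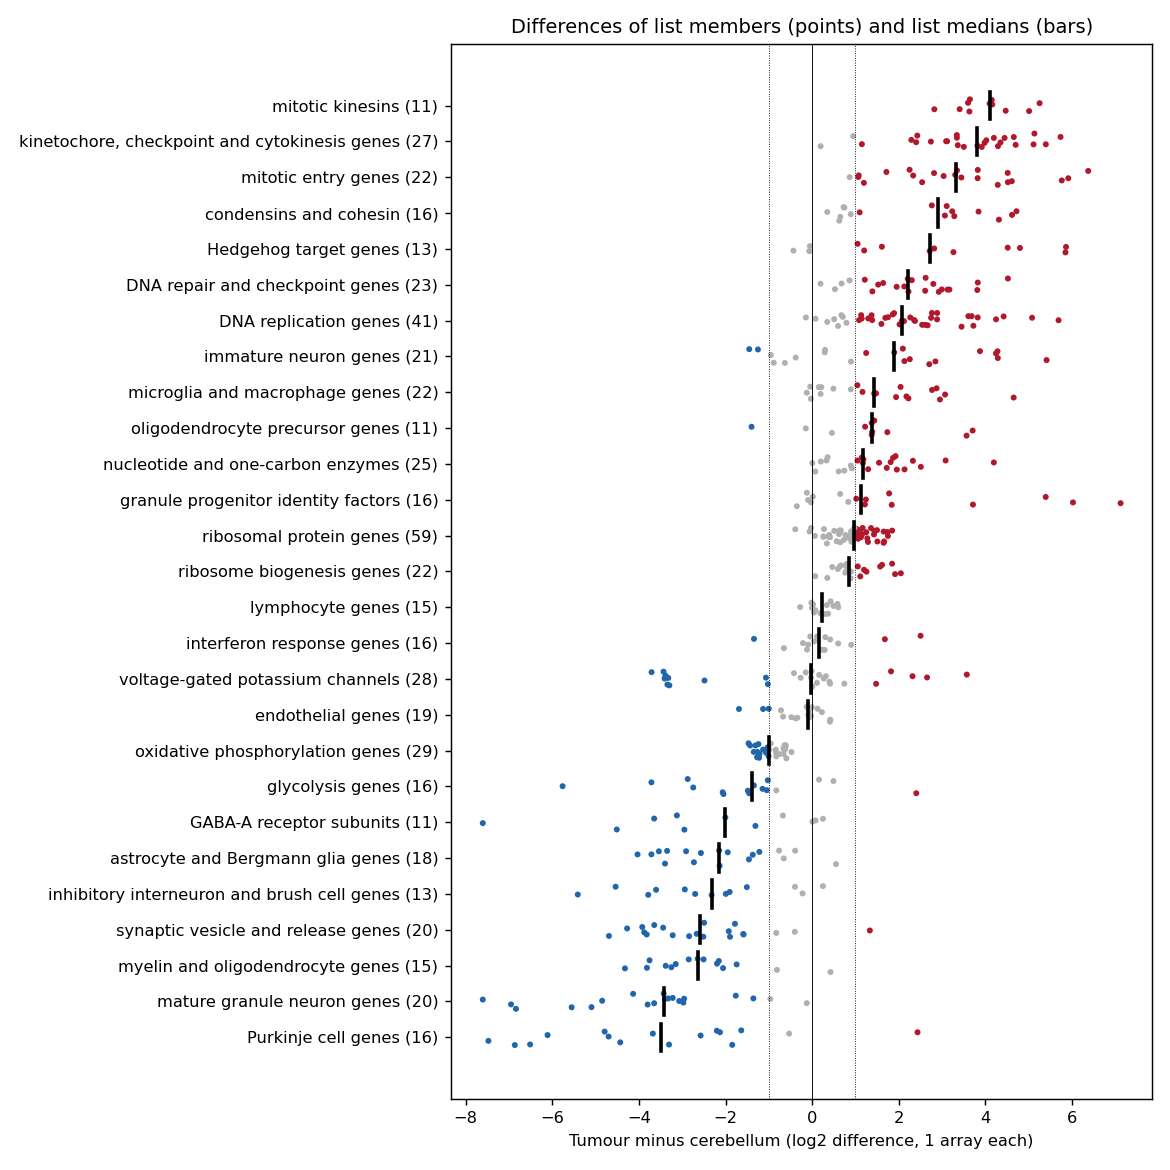
Log2 difference (tumour minus cerebellum, 1 array each) of every measured member of 27 gene lists, with the number of members after each name. Points are genes, red at least 2-fold higher and blue at least 2-fold lower, and black bars are list medians, which run from 4.10 for mitotic kinesins to -3.49 for Purkinje cell genes.

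The highest medians of all lists were those of mitotic genes and of condensins and cohesin, and other cell cycle lists lay below Hedgehog targets. Of 22 mitotic entry genes, 21 were higher (median 3.33), of 27 kinetochore, checkpoint and cytokinesis genes 25 (median 3.82) and of 11 mitotic kinesins all 11 (median 4.10). Together these are 60 genes, of which 57 were higher, 52 by at least 4-fold, and none was lower. In the cerebellum 23 of the 60 were under the lower quartile, and in the tumour none. Ccna2 (cyclin A2) read 4.61 and 10.99, and Mki67, the proliferation marker, 5.38 and 11.15. Ect2, which triggers the cleavage furrow, read 4.45 and 10.19 and Bub1, a checkpoint kinase, 4.47 and 9.61. Ccna2, Ect2 and Bub1 were thus higher by at least 5.90, 5.10 and 4.52. Knl1, Tpx2 and Kif2c, which act at kinetochore and spindle, were higher by at least 4.94, 5.03 and 4.45, and the checkpoint kinase gene Bub1b by 4.66. The smallest difference among the kinesins was 2.82 (Kif14) and among the mitotic entry genes 0.87 (Lin54, a MuvB subunit). The smallest of all was that of Cit, a cytokinesis kinase that neurons also make, at 7.90 and 8.10. A second probe set of Top2a read 3.41 and 4.12, a difference of 0.71 near the low end of both arrays. Kinesins that carry cargo in neurons and other cells behaved otherwise: of 12 transport kinesins 1 was higher (Kif21b, by 1.45) and 3 were lower (median -0.61), with Kif5a at 10.66 and 8.22.

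At the G1 stage 7 of 14 cyclins, kinases and inhibitors were higher and none lower (median 1.00). Cdk6, the kinase that partners D-type cyclins, measured 5.71 in the cerebellum and 12.11 in the tumour, the largest positive difference of the genes at or above the quartile in both arrays (6.41, an 84.8-fold ratio). Its relative Cdk4 was higher by 2.73 and Cdk2 by 3.39. The inhibitor genes did not share a direction of one size: Cdkn2c (p18) was higher by 3.20 and Cdkn2a by 1.33, while Cdkn1b (p27) differed by 0.54 and Cdkn2d by -0.08. Of 13 E2F factors and pocket proteins 7 were higher (median 1.05), with E2f8 at 5.05 and 8.87 (at least 3.78 apart), E2f1 at 6.32 and 9.56, and the pocket protein gene Rbl1 at 6.66 and 9.05. The repressor gene E2f5 differed by -0.47.

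DNA replication genes were higher in 33 of 41 cases (median 2.07) and DNA repair and checkpoint genes in 19 of 23 (median 2.23), with none lower in either list. Pclaf, which binds the replication clamp, read 5.81 and 11.50, and a second probe set gave a difference of 6.36. Uhrf1, which links replication to DNA methylation, was at 5.51 and 10.59. The origin recognition genes Orc2 to Orc6 stayed within 2-fold, from -0.14 for Orc4 to 0.71 for Orc6, whereas Orc1 was higher by 1.14. Chek1, the replication checkpoint kinase, was at 4.88 and 9.40 (at least 4.31 apart), and Atrip, a partner of the kinase ATR, differed least of the repair genes, by 0.19. Among condensins and cohesin 10 of 16 were higher (median 2.92). The condensin genes Ncapg and Ncaph were higher by at least 4.56 and 4.41 and Smc2 by 4.31, while the cohesin ring genes Smc1a, Smc3 and Rad21 differed by 0.75, 0.73 and 0.89 and Ncaph2 least, by 0.35.

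Histone genes named by symbol were higher in 20 of 30 cases and lower in 1 (median 1.27). H2ac4 read 4.48 and 9.42 (at least 4.32 apart) and the linker histone H1f5 8.56 and 12.49. H2bc4 went the other way, at 8.87 and 6.93. These genes have near-identical copies, so probes may read several of them. The architectural genes Hmgb2 and Hmgb3 were higher by 4.05 and 3.12.

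Beside shares of 7.90% higher and 10.6% lower over all genes, 3 of 19 p53 and target genes were higher and 1 lower (median 0.13). They were the receptor gene Eda2r of the tumour necrosis factor receptor family (4.87 and 9.21, at least 4.12 apart), Gtse1 (5.20 and 7.69), which is also a mitotic gene, and Trp53inp1 (8.67 and 10.46), while the membrane protein gene Perp was lower by 1.29. The ubiquitin ligase Mdm2 was at 8.31 and 8.32. In the Myc family all 3 growth-promoting genes were higher, with Myc at 5.73 and 8.92, Mycl at 6.16 and 9.79, and Mycn as given above. Their partner gene Max was lower, at 10.87 and 9.56, and the S-phase antagonist gene Mxd3 was higher by 1.79. Of the 11 Myc, Max and Mxd genes 4 were higher and 1 lower (median 0.34).

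Of 59 ribosomal protein genes named by symbol, 28 were higher and none lower, with a median of 0.97 and 56 positive differences, from -0.39 (Rps15a) to 1.85 (Rps27l). These genes too have many copies. Of 22 ribosome biogenesis genes 9 were higher (median 0.86), all 22 differences were positive, from 0.07 for Bop1 upward, and the RNA polymerase I subunit genes Polr1a and Polr1b were higher by 2.05 and 1.92. Of 25 nucleotide and one-carbon enzymes 16 were higher and none lower (median 1.18), led by the ribonucleotide reductase subunit Rrm2 at 6.15 and 10.35, while Dhodh, an enzyme of pyrimidine synthesis, was at 6.99 in both. Of 29 oxidative phosphorylation genes 14 were lower (median -0.99), all 29 differences were negative, and they lay in a narrow band from -1.47 (Cox8a) to -0.48 (Ndufa9). Of 17 cholesterol synthesis genes 2 were lower (median -0.15), from -1.25 for Msmo1 to 0.41 for Fdps.

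Of 16 glycolysis genes 12 were lower and 1 higher (median -1.40). The neuronal enolase Eno2 was at 11.98 and 6.22 and Aldoc, an aldolase of astrocytes and Purkinje cells, at 13.69 and 9.98. Hexokinase 2 (Hk2), which is used by many dividing cells, was the higher one at 7.90 and 10.30, beside Hk1 at 12.72 and 12.88. Lactate dehydrogenase A (Ldha) differed by 0.49 and B (Ldhb) by -1.45, the latter by -0.71 when its probe sets were averaged. Of 15 hypoxia response genes 7 were lower and only Hk2 was higher (median -0.85), with the transcription factor gene Bhlhe40 at 8.35 and 6.12, Vegfa at 8.64 and 7.60 and Car9 at 6.77 and 4.98 (at least 1.62 lower).

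Chromatin and splicing regulators went both ways, and the subunits and factors named here were picked after their values were seen. Within the BAF remodelling complex, the progenitor subunit gene Actl6a was higher by 1.66 and the core subunit gene Smarcc1 by 2.10. The neuronal subunit genes Actl6b and Dpf3 were lower by 1.03 and 1.77, and Smarcd3 by 1.38. Of 19 subunits 6 were higher, 4 lower and 9 between (median 0.49). Of 17 Polycomb genes 4 were higher, 2 lower and 11 between (median 0.40): the methyltransferase Ezh2 was at 9.29 and 11.40 and its relative Ezh1 at 9.68 and 8.58. The reader genes Cbx2 and Cbx7 differed by 1.89 and -1.54. Ptbp1, a splicing repressor of non-neuronal cells, was at 8.63 and 10.89, and the neuronal splicing factors Rbfox1 and Rbfox3 were lower by 2.80 and 1.36. Of 17 splicing factors 4 were higher, 3 lower and 10 between (median 0.31). Of 10 DNA methylation genes 2 were higher (median 0.64), among them the maintenance methyltransferase Dnmt1 at 8.81 and 10.50, and Mbd2, a reader of methylated DNA, had the lowest difference at -0.14. Of 9 oncofetal RNA-binding and high-mobility-group genes 4 were higher and 1 lower (median 0.53), the lower one being Lin28b at 5.22 and 4.16, a difference of only -0.07 with the lower level raised to the quartile.

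The counts of signal, guidance and adhesion genes stand beside shares of 7.90% higher and 10.6% lower over all genes. Among signals, Wnt antagonists and feedback genes gave a few very large differences, and the others stayed within 2-fold. Of 16 genes 3 were higher: Sfrp1, Sfrp2 at 6.51 and 10.40, and the Wnt feedback gene Nkd1 at 7.22 and 10.23. The Wnt target Axin2 differed by 0.51, Lef1 by -0.45 and the secreted antagonist gene Wif1 by -0.92, and the list median was 0.24. Of 22 BMP and Id genes none was higher and 7 were lower (median -0.22, highest Chrd at 0.54), among them Id4 (10.75 and 7.81), the ligand gene Bmp5 (8.28 and 5.43) and the feedback gene Smad7 (8.80 and 6.80). Of 18 Notch pathway genes 4 were higher and none lower (median 0.44, lowest Rfng at -0.78). The target Hey1 was at 8.72 and 10.72 and the ligand gene Jag1 at 6.42 and 8.28, but the targets Hes1 and Hes5 differed by -0.06 and 0.60. Irs1, the adaptor of insulin and IGF receptors, was at 8.35 and 10.81, while the ligand gene Igf2 differed by -0.05. Of 14 IGF genes 3 were higher and 2 lower (median 0.33), with Igfbp6, a binding protein, lowest at -1.40. Of 20 FGF genes 7 were lower and 2 higher (median -0.19), led by Fgf14 (10.42 and 6.13) and Fgf12 (9.11 and 6.60), which encode intracellular partners of sodium channels, and Fgfr4 was higher by 1.68.

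Guidance and adhesion genes were mixed in direction. Of 33 axon guidance genes 6 were higher and 10 lower (median -0.30), the lowest being the semaphorin receptor gene Plxna4 at 8.48 and 6.41. The netrin receptor Dcc measured 5.73 in the cerebellum and 10.74 in the tumour, and its ligand Ntn1 7.75 and 8.98. The Slit receptors Robo1 and Robo2 were higher by 2.24 and 2.04. Of the other netrin receptors, Unc5a, Unc5b and Unc5c were lower by 1.46, 1.74 and 1.51, and Unc5d stayed within 2-fold at -0.92. Of 28 cadherins and adhesion genes 12 were lower and 2 higher (median -0.79). Cdh20 and Cdh4 were higher by 2.67 and 1.96, and Cntn6, a contactin of granule neurons, was lower by 3.90. Of 16 immediate-early genes 2 were higher and 1 lower (median -0.06), with Fosl2 at 6.27 and 8.63 and Arc at 8.24 and 7.10.

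Neuronal signalling genes were lower in most classes but not evenly. Of 20 synaptic vesicle and release genes 17 were lower (median -2.59). The calcium sensor Syt1 was at 11.97 and 7.70 and the release factor Unc13c at 9.84 and 5.14, and Stx1a, a plasma membrane SNARE, was the only higher one at 6.35 and 7.68. Of 11 GABA-A receptor subunits 7 were lower (median -2.003, highest Gabrg3 at 0.25). Of 20 glutamate receptor genes 11 were lower and 1 higher (median -1.26), the lowest being the presynaptic receptor gene Grm4 at 10.44 and 6.30. The higher one was the early NMDA receptor subunit gene Grin2b (6.40 and 7.61), beside the adult subunit genes Grin2a (8.57 and 4.55, at least 3.42 lower) and Grin2c (9.75 and 6.32). Grin2d, also known from early stages, was lower by 1.10.

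The sodium channels went both ways. The adult channel gene Scn1a was at 9.86 and 5.26 and the subunit gene Scn2b at 11.42 and 6.03, while the embryonic channel gene Scn3a was at 4.55 and 6.23 (at least 1.14 apart) and the subunit gene Scn3b at 5.60 and 7.54. Of 21 sodium and calcium channel genes 11 were lower and 3 higher (median -1.01). Of 28 potassium channel genes 10 were lower and 5 higher, so the list median was -0.02. The higher ones were Kcnh5 (5.26 and 8.84), Kcnh8 (4.56 and 7.21, at least 2.12 apart), Kcnb2 (5.39 and 7.71), Kcnh7 (6.04 and 7.87) and Kcnq5 (5.72 and 7.20). The lower ones included the Shaker channel genes Kcna1, Kcna2 and Kcna6 (-3.43, -3.71 and -3.34). The Kcnh genes did not share a direction, since Kcnh1 was lower at 9.08 and 5.79. Kcnh2, Kcnh3 and Kcnh4 differed by -0.01, -0.27 and 0.003. Of 23 calcium-binding and sensor genes 18 were lower and none higher (median -2.21), and the highest difference was that of the sensor gene Hpca at 0.74.

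Markers of the other cells of the tissue moved as well, and their part in the results above was not tested. Of 18 astrocyte and Bergmann glia genes 14 were lower and none higher (median -2.14). The mean log2 level of the list was 10.54 in the cerebellum and 8.44 in the tumour. The gap junction gene Gja1 was at 11.33 and 7.30, while Gfap, the filament of reactive astrocytes, was at 7.60 and 8.15. Of 16 reactive astrocyte genes 7 were higher and 1, S100a10 at -1.11, lower (median 0.94). Lcn2, a secreted iron-siderophore carrier, was at 5.33 and 10.46, Cp (ceruloplasmin) at 7.43 and 9.94 and Timp1, a protease inhibitor, at 5.36 and 7.36. Of 15 myelin genes 13 were lower (median -2.64), with a mean of 9.05 and 6.50. Mag was at 9.77 and 5.45 and Mbp, a main protein of myelin, at 9.92 and 7.87, while the transferrin gene Trf differed by 0.42. Oligodendrocyte precursor genes went the other way in 8 of 11 cases (median 1.38), with a mean of 7.53 and 8.87, and 1 was lower (Ptprz1, by 1.40). The growth factor receptor Pdgfra was at 7.86 and 11.43 and C1ql1, a secreted synaptic protein, at 6.67 and 10.37. Nkx2-2 (-0.15) and Sox10 (0.46), which also mark this lineage, stayed within 2-fold.

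Of 22 microglia and macrophage genes 14 were higher and none lower (median 1.44), with a mean of 6.50 and 8.01. The lysozyme gene Lyz2 was at 6.10 and 10.75, the lysosomal gene Cd68 at 6.81 and 9.88 and the phagocyte gene Gpnmb at 6.01 and 8.97. The complement genes C1qa, C1qb and C1qc were higher by 2.18, 2.87 and 2.77. Markers of resting microglia were mixed: P2ry12 differed by 0.21, Tmem119 by 0.15 and Siglech by -0.12, while Cx3cr1 and Csf1r were higher by 1.48 and 1.16. Of 15 lymphocyte genes none was 2-fold different (median 0.22, from -0.28 for Gzmb to 0.60 for Cd79a), and 8 were under the lower quartile in both arrays. Cd3e, a subunit of the T cell receptor complex, was at 6.04 and 6.26. Of 19 endothelial genes 3 were lower and none higher (median -0.09, highest Slco1a4 at 0.42), with Cldn5 at 7.80 and 7.72 and the transporter gene Abcb1a at 8.74 and 7.05. The basement membrane collagens Col4a1 and Col4a2 were higher by 1.30 and 1.04, in a list of 21 mural and fibroblast genes with 5 higher and 3 lower (median 0.18). Of 11 antigen presentation genes 1 was higher (H2-Aa, at 5.29 and 6.66) and Tap2 was lowest at -0.29 (median 0.42). Of 16 interferon response genes 2 were higher and 1, Stat2, lower at -1.34 (median 0.17), with the chemokine gene Cxcl10 at 5.41 and 7.91.

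The transthyretin gene Ttr was at 6.23 and 10.81, the only one of 11 choroid plexus and ependymal genes past 2-fold (median 0.03). Other choroid plexus genes read 4.70 and 5.26 (Kl), 6.81 and 5.88 (Kcnj13) and 6.26 and 6.29 (Aqp1). Ptgds, a prostaglandin synthase of meninges and oligodendrocytes, was lower at 10.60 and 6.92. Of the red blood cell genes only Slc4a1 and Alas2 were measured, and they differed by 0.19 and -0.83 (median -0.32). Of 11 genes often used as references 2 were higher and 2 lower (median 0.49), from -1.27 for Sdha to 1.75 for Rplp0.

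Genes named by size alone held further entries outside the lists. Among the 20 largest positive differences measured on both sides were Draxin, a guidance protein (5.51 and 10.89), Rassf4 (6.32 and 11.56), the somatostatin receptor gene Sstr2 (5.55 and 10.56), Sinhcaf, a subunit of a histone deacetylase complex (6.48 and 11.30), and the RNA-binding protein gene Mex3a (5.75 and 10.53). From cerebellar levels under the quartile, the mitotic kinase Pbk (4.78 and 10.08), the kinetochore gene Ska3 (4.24 and 9.04) and Dtl (4.66 and 9.39), which directs proteolysis in S phase, were higher by at least 4.99, 3.94 and 4.30. On the other side stood Olfm3 (10.72 and 5.26), the carbonic anhydrase gene Car4 (11.12 and 5.70), the enkephalin gene Penk (11.25 and 5.98) and Slc12a5, the neuronal chloride extruder (11.25 and 6.03). St8sia5, Faim2, Rit2, Atp1b1, Dpp10, Adcy1 and Strip2 followed, with differences from -5.08 to -4.86. Tumour levels under the quartile were reached by Elmod1 (9.96 and 4.59), Spock3 (8.67 and 3.59), Kcnip4 (9.89 and 4.91), Nap1l3 (9.25 and 4.74), Nell1 (8.67 and 4.45), Shisa6 (9.32 and 5.14) and Fgf7 (8.69 and 4.68). With those levels raised to it their differences lay between -4.82 (Elmod1) and -3.52 (Spock3).

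The microRNAs below were picked after their values were seen, to set precursors of 1 cluster or with a shared seed beside each other. A seed, bases 2 to 8 in capitals, pairs with target messages. The array reads precursor or host transcripts and not the mature form. Sequences are from RefSeq on build GRCm38.p6.
miR-17-5p: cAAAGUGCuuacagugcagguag
miR-20a-5p: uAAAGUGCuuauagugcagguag
miR-18a-5p: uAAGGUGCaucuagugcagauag
miR-19a-3p: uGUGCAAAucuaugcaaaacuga
miR-19b-3p: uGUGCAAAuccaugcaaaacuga
miR-15b-5p: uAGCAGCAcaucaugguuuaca
miR-16-5p: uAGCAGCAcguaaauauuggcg
let-7c-5p: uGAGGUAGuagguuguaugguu
let-7f-5p: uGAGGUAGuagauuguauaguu
miR-99a-5p: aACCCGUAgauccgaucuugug
miR-382-5p: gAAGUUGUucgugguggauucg

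The first 5 lie together on chromosome 14 in the Mir17hg host gene, from chr14:115043684-115043706 for miR-17-5p to chr14:115044358-115044380 for miR-19b-3p. That cluster promotes growth downstream of Myc factors. The host transcript Mir17hg measured 4.50 in the cerebellum and 6.47 in the tumour, at least 1.38 apart. The precursor genes were at 4.48 and 5.12 (Mir17), 4.20 and 5.91 (Mir18), 3.47 and 4.72 (Mir19a), 3.72 and 5.23 (Mir20a) and 3.81 and 5.36 (Mir19b-1). All 5 differences were positive and 4 passed 2-fold, yet these levels are near the low end of the arrays. With levels under the lower quartile raised to it, the differences of Mir18, Mir19a, Mir20a and Mir19b-1 were 0.82, 0.05, 0.13 and 0.27 and none was past 2-fold. Mir19b-2, a second precursor of the same mature miR-19b on chromosome X, differed by 0.35.

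Precursors that share a seed did not always share a direction. Mir15b and Mir16-2, neighbours on chromosome 3 within the condensin gene Smc4, were at 4.74 and 6.86 and at 4.50 and 5.71. From the quartile upward their differences were 1.77 and 0.62, so that the call of Mir16-2 was lost, and Smc4 itself was higher by 3.11. Mir16-1 on chromosome 14, which yields the same mature miR-16, differed by 0.04. Of the let-7 precursors, Mirlet7c-1 was at 4.35 and 7.28 (at least 2.19 apart) and Mirlet7f-1 at 7.25 and 5.58, in opposite directions with the same seed. Mir99a, next to Mirlet7c-1 on chromosome 16, was at 5.90 and 8.56. Over all 297 measured precursors 12 were higher (4.04%) and 19 lower (6.40%), both under the shares for all genes, and with low levels raised to the quartile 6 and 7 remained. Of the 43 precursors of a list of brain and cancer microRNAs 5 were higher and 1 was lower (median 0.04), with Mirlet7c-1 highest and Mirlet7f-1 lowest.

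Of the 19 lower precursors, 14 lay in 1 imprinted locus on chromosome 12, from Dlk1 to Mir369. This locus was singled out after its values were seen. There the paternal chromosome expresses the protein-coding genes Dlk1 and Rtl1, and the maternal one expresses the long non-coding RNAs Meg3 and Rian with clusters of small nucleolar RNAs and microRNAs. Meg3 measured 11.10 in the cerebellum and 6.24 in the tumour and Rian 7.64 and 4.52 (at least 2.50 lower). Mir382 was at 7.10 and 3.51, Mir487b at 6.95 and 4.67, Mir539 at 5.85 and 3.54 and Mir134 at 7.95 and 6.69. Of 40 microRNA precursors in the locus 34 had a negative difference and none was 2-fold higher, with a median of -0.65, against 0.08 for the 257 precursors elsewhere, of which 5 were lower. In both arrays 16 of the 40 were under the lower quartile, and only 10 of the 14 lower precursors reached it in the cerebellum. With low levels raised to the quartile 4 of the 14 stayed 2-fold lower, Mir382 (-1.96), Mir487b (-1.81), Mir134 (-1.26) and Mir485 (-1.05), and Mir539 differed by -0.71. The small nucleolar RNAs DQ267101 and DQ267102 of the locus were lower by 1.18 and 2.56, the former by 0.06 with its low level raised to the quartile. The paternally expressed Dlk1 (6.44 and 7.04) and Rtl1 (5.80 and 5.85) did not share the direction.

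**Figure D4:**
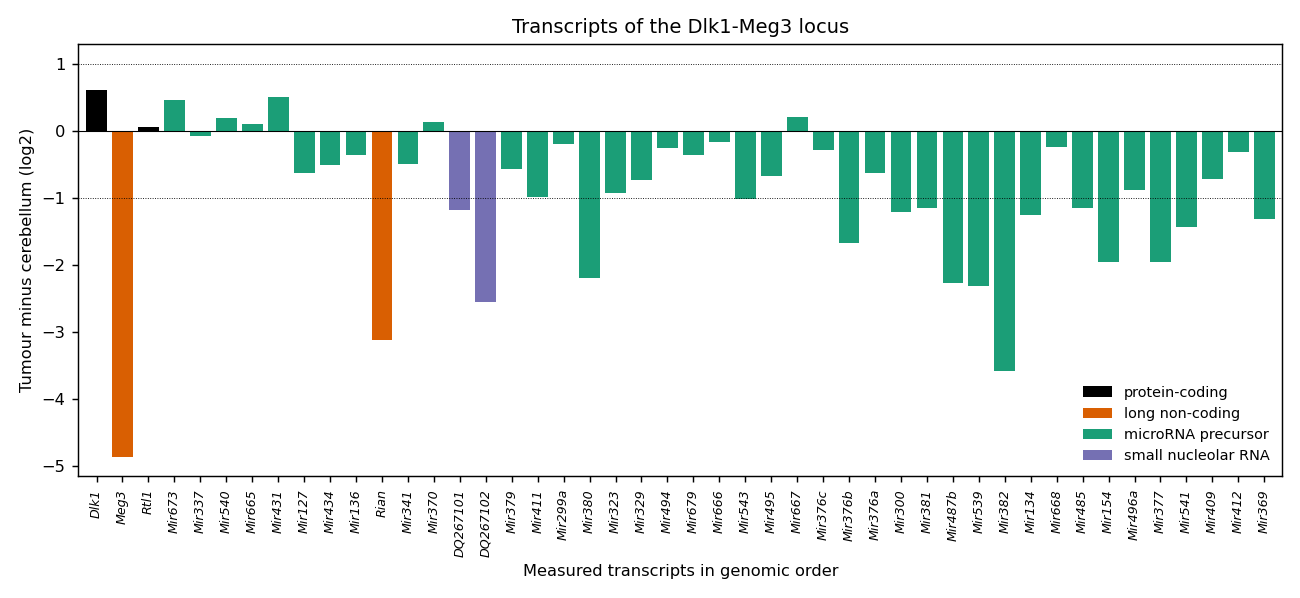
Log2 difference (tumour minus cerebellum, 1 array each) of the 46 measured transcripts of the Dlk1-Meg3 locus in genomic order, coloured by kind, with dotted lines at 2-fold. The maternally expressed Meg3, Rian and most microRNA precursors lie below 0, and Dlk1 and Rtl1 lie slightly above it.

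The list of imprinted genes as a whole, which includes Meg3, Rian and Dlk1 of this locus, went both ways. Of 17 measured 3 were higher and 6 lower (median -0.05). Ndn (necdin), a growth suppressor of neurons, was at 11.40 and 7.53. Nnat (neuronatin) was at 9.19 and 11.89, and Mest and Peg10 were higher by 1.71 and 1.42. Outside the Dlk1-Meg3 locus no small nucleolar RNA was 2-fold lower. Of all 53 measured, 15 were higher (28.3%, against 7.90% of all genes) and the median was 0.62. With low levels raised to the quartile 14 stayed 2-fold higher. Among them Snord33 was at 10.21 and 11.57, Snord16a at 7.68 and 9.48 and Snord52 at 4.97 and 7.16 (at least 2.07 apart). The class was also singled out after its values were seen.

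By chromosome, the genes above the median level on chromosome 6, singled out after the values were seen, stood apart. Their median difference was 0.27, against -0.03 on all other chromosomes, so that the chromosome lay 0.29 above the rest. Of its 501 genes 22.2% were 2-fold higher, against 11.8% elsewhere. The 2-fold lower share was 15.6%, and on the other chromosomes it ran from 12.9% (16) to 22.8% (X). All 12 of its segments of about 40 neighbouring genes had a median above that of all genes, from 0.02 to 0.56, whereas 112 of 226 segments on the other chromosomes did. The other 19 chromosomes lay between -0.12 (X) and 0.08 (5). With all named genes in place of those above the median level, chromosome 6 lay only 0.084 above the rest. Atoh1, Smo and Ccnd2, described above, lie on chromosome 6, and the share of the chromosome in their differences was not tested. Of the 35 genes named by size as higher 4 lie on chromosome 6, and of the 35 named as lower also 4.

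**Figure D5:**
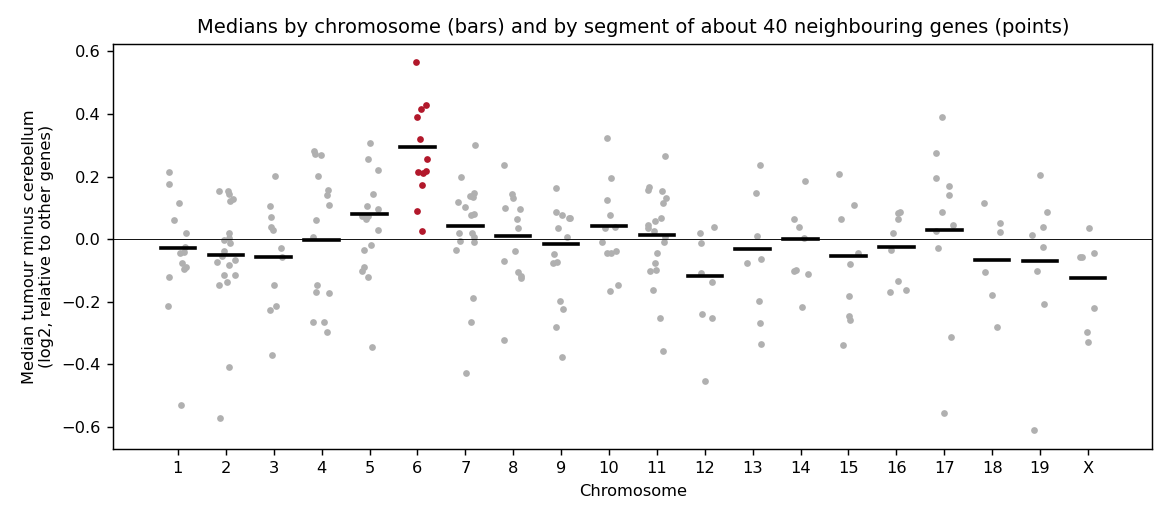
Median log2 difference (tumour minus cerebellum, 1 array each) of the genes above the median level on each chromosome relative to the other chromosomes (bars), and of segments of about 40 neighbouring genes relative to all such genes (points, red for chromosome 6). Every segment of chromosome 6 lies above 0, and the other chromosomes have segments on both sides.

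Chromosome 13, which carries Ptch1, differed from the rest by -0.03. Of the 40 genes above the median level that lay nearest to Ptch1, 20 on each side, 24 had a negative difference. The median of the 40 was -0.30, and genes at lower levels between them were not counted. Single segments of chromosomes other than 6 ranged from -0.61 to 0.39.

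Of 9 measured genes of the Y chromosome 4 were lower in the tumour. Eif2s3y measured 8.46 in the cerebellum and 3.48 in the tumour, Uty 8.68 and 3.76, Kdm5d 6.97 and 3.91 and Srsy 5.47 and 4.08, with tumour levels not shown to be above background. With that level raised to the quartile Srsy differed by -0.33. Sry was at 6.05 and 6.07, and Uba1y, Usp9y, Zfy1 and Zfy2 were under the quartile in both arrays. Xist, the RNA of the inactive X chromosome, was low in both, at 4.91 and 4.61, and the same probe set reached 9.50 in another array of the study. The X-linked partner genes Eif2s3x, Kdm6a and Kdm5c differed by 0.52, -0.16 and 0.60. Over the 7 sex chromosome genes 3 were lower and none higher (median -0.30).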

How the data were processed

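Total RNA was extracted with an RNeasy mini kit and hybridised to Affymetrix Mouse Gene 1.0 ST arrays, per the labels' protocols. The deposited values are log2 expression values per probe set, which the authors obtained from Affymetrix Expression Console according to the submitters' processing notes. The version of that program, the summarisation and normalization method and the genome build are unstated in the sources used here. The values' range was taken to show a log2 scale. If the method scaled the arrays to a common distribution, a shift shared by most genes would not be seen.

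The values were used as deposited. Probe sets with several symbols or none were left out, symbols were updated through RefSeq (GRCm38.p6; 21698 probe sets matched), and a gene with several probe sets (999 genes) was represented by the one with the highest mean over both arrays. Of the called genes, 255 had several probe sets and 28 of them had one of opposite sign. With 1 array a group no test was run, and called means a log2 difference of at least 1. Named genes were Ptch1, Smo, Gli1 and Atoh1, the 20 largest differences in each direction measured on both sides, the 15 largest in each direction from a level under the lower quartile, members of the lists, and those said to be chosen after their values were seen. Members and lists were chosen with earlier results of these data known. Alternatives were quantile normalization, median centring, the mean of probe sets, a floor or filter at the lower quartile and other thresholds. Precision is limited by the number of arrays. Calculations used Python 3.11.15, numpy 2.4.6 and pandas 2.3.3, and were tested on simulated data.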

Additional observations from a re-analysis of the deposited data

Results flagged for a closer look

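Among the 13768 probe sets without a single gene symbol, which the report does not use, 1387 (10.1%) were at least 2-fold higher in the PtchLacZ/+ medulloblastoma than in the wild-type cerebellum and 695 (5.05%) were at least 2-fold lower. They are flagged because a difference from the control appears in values outside the comparison. Over the 19938 genes used in the report the shares were 7.90% higher and 10.6% lower. Of the 1621 probe sets with several symbols 241 (14.9%) were higher, and of the 12147 with none 1146 (9.43%) were.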

How the results depend on the processing

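No paired analysis was possible because each group had 1 array, and for the same reason no array could be left out. With a 4-fold threshold the counts were 481 higher and 693 lower genes, and with a 1.5-fold threshold 3030 and 3466. Under quantile normalization, median centring, the mean of probe sets, the floor and the filter on low levels, both counts stayed within 1.5 times those reported, and at least 94.6% of the called genes were called again. No list median or named gene changed direction as a call. Chromosomes were checked only for a shift of at least 0.1, with all named genes or quantile normalization, and chromosome 6 alone shifted so far. List medians near 2-fold crossed it: granule progenitor factors were at 0.74 and oxidative phosphorylation genes at -1.01 with the mean of probe sets, the latter also at -1.01 with quantile normalization. With median centring G1 genes were at 1.03, ribosomal protein genes at 1.01, and sodium and calcium channels at -0.97, the last also at -0.97 with quantile normalization. The sex chromosome list was at -1.61 with low genes left out, where fewer genes remain. Chromosome 6 lay 0.084 above the rest with all named genes, and the cause was not tested. Low signal limits differences from levels under the lower quartile.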
